A study of Caenorhabditis elegans with 2 samples.

Results

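The genes described here encode the DRM complex of Caenorhabditis elegans and a pair of chromatin proteins studied beside it. They are 10 named genes of 19973 nuclear protein-coding genes. They were listed by name with earlier results of these data in view, and every region whose summit lay inside one of them, or 1000 bp upstream to 200 bp downstream of one of its annotated transcript starts (the promoter window), was collected from the 8 deposited peak lists. The data are ChIP-seq of EGL-44, the worm protein of the TEAD family of DNA-binding factors, done with an anti-GFP antibody on whole young adult worms. All worms were of strain RW12173, in which GFP was inserted at egl-44 by CRISPR (allele st12173, with a loxP-flanked unc-119(+) cassette) in an unc-119(tm4063) background, so there was a single group, with no other genotype, stage or treatment. The worms were hatched by bleaching, held as starved L1 larvae and then grown to the age of 66.5 h, and the 2 libraries are biological replicates 1 and 2. Whole worms were used, so a site bound in few cells and a site bound weakly in many cells cannot be told apart.

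DRM stands for DP, Rb and MuvB. In it the retinoblastoma-like protein LIN-35 and the E2F and DP proteins EFL-1 and DPL-1 sit on a core of LIN-9, LIN-37, LIN-52, LIN-53 and LIN-54, and the complex is best known for repressing cell cycle and germline genes in somatic cells. Its genes belong to the class B of synthetic multivulva (synMuv) genes, which act together with class A to keep the EGF gene lin-3 silent and so prevent extra vulval tissue. LIN-13 is a zinc finger protein of the same class that works with the heterochromatin protein HPL-2, and LIN-59 is a SET domain protein related to fly ASH1 that is needed for Hox gene expression and is not a DRM subunit.

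EGL-44 peaks lay upstream of 5 of the 10 genes, those for the core subunits lin-9, lin-53 and lin-54 and those for lin-13 and lin-59. The genes for the retinoblastoma arm of the complex, lin-35, efl-1 and dpl-1, and the core gene lin-37 had no peak in any of the 4 thresholded lists. The core gene lin-52 had none in the pooled list and one in the conservative list. A peak here is a region in the list that the authors limited by reproducibility, and the lists end at a global irreproducible discovery rate (IDR) of 0.01, which is 2 on the −log10 scale. Across all nuclear protein-coding genes, 1171 (5.86%) had a pooled peak in the same windows. For promoter windows alone the members' count was again 5, and 4.03% of all genes had one. The members were chosen from this readout, so these counts describe them and carry no test.

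The number of members with a peak depended on the replicate. Replicate 1's own list held 3 of them, lin-9, lin-53 and lin-54 (background 3.23%), and replicate 2's own list held 1, lin-53 (background 2.19%). The conservative list, made from the 2 replicates compared with each other, held 6 (background 5.47%). At a looser IDR of 0.05 the pooled ranked list gave 8 of 10 members (background 11.4%), leaving out dpl-1 and lin-37. At 0.001 it gave lin-53 and lin-54 (2 members, background 2.48%). Every member had at least 1 region of some rank in the pooled ranked list, but so did 77.9% of all genes. The same held in the ranked list of replicate 1 (10 of 10 members, 71.8% of all genes) and of replicate 2 (10 of 10, 70% of all genes).

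**Figure D1:**
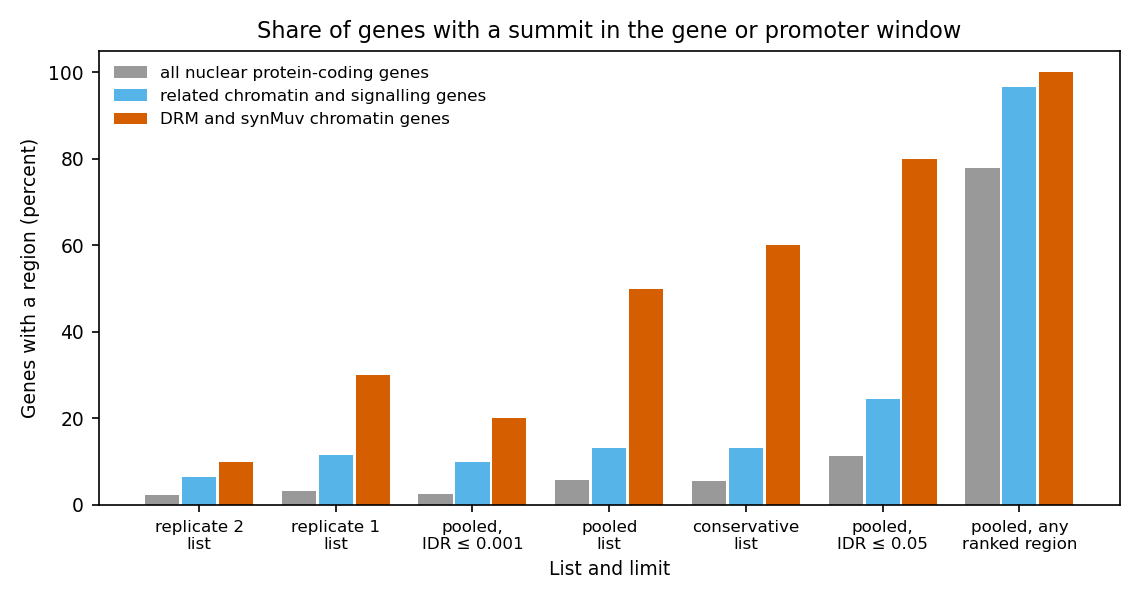
Percent of genes (vertical axis) with a summit in the gene or promoter window under 7 lists and limits (horizontal axis), for all 19973 nuclear protein-coding genes (grey), 61 related genes (blue) and the 10 members (orange). The members' bar runs from 10% in replicate 2's list to 60% in the conservative list and 80% at an IDR of 0.05, and for regions of any rank in the pooled list the grey bar also stands at 77.9%.

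The leading region of a gene, used from here on, is its pooled ranked region with the highest −log10 IDR, and among equal values the one of highest signal. The member closest above the limit was lin-59, at 2.30, and the member closest below it was lin-35, at 1.82. Next below were efl-1 at 1.72 and lin-52 at 1.35, while dpl-1 at 0.38 and lin-37 at 0.09 were far from the limit. The signal is the value the authors deposited for each region. How it was scaled from library to library is not stated, so values from different lists stand side by side and are ranked only within a list.

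**Figure D2:**
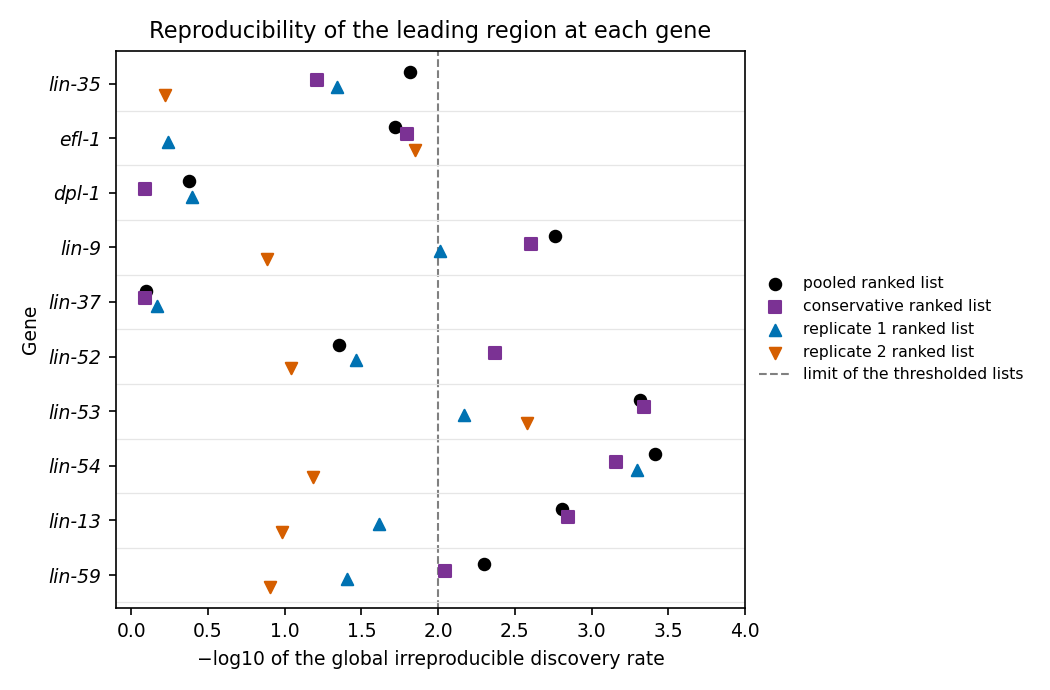
Horizontal axis, −log10 of the global IDR of each member's leading region; vertical axis, the 10 genes. Points show the pooled, conservative, replicate 1 and replicate 2 ranked lists, and the dashed line marks the limit of 2; lin-53 is the one gene with all 4 points to the right of it, and lin-52 passes it in the conservative list alone.

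Among the core subunit genes, lin-54 had the strongest region. LIN-54 is a subunit that contacts DNA, at the cell cycle homology region of target promoters. Its peak at IV:13240490-13240799 (ce11) had signal 110.2, rank 329 of the 1553 pooled peaks, and a pooled −log10 IDR of 3.41, the highest of the members. In replicate 1's ranked list the overlapping region had signal 72.3 with a −log10 IDR of 3.30, and in replicate 2's it had 33.7 with 1.18. The peak thus stands in replicate 1's own list and not in replicate 2's. The summit lay 399 bp upstream of the nearest lin-54 start and 6 bp inside rpl-12, in the 5' UTR of that gene, which is read the other way and encodes a protein of the large ribosomal subunit. When each summit was given to its nearest start, this peak went to rpl-12 and 4 members with a pooled peak were left. The share of all genes under that rule was not computed.

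The peak at lin-53 was the one member peak in the thresholded lists of both replicates. Of all genes, 1.52% had a summit in both lists, whether or not in the same region. LIN-53 is the histone-binding RbAp48 protein, which the DRM complex shares with other chromatin complexes such as NuRD. Its peak at I:9619834-9620143 had signal 101 (rank 440 of the pooled peaks), with 51.5 in replicate 1 and 49.3 in replicate 2. The −log10 IDR was 3.32 in the pooled ranked list, 2.17 in replicate 1 and 2.58 in replicate 2. The summit lay 229 bp upstream of lin-53 and 238 bp upstream of nra-2, which is read in the opposite direction, so the region is common to both promoters.

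The remaining core genes had weaker or less reproducible regions. LIN-9 is a conserved subunit of the core, and its gene had a peak at III:8904151-8904460, 175 bp upstream of its start, with signal 75.7 (rank 917). That region had signal 46.5 in replicate 1, where its −log10 IDR of 2.01 just passed the limit, and 32.0 in replicate 2, where 0.88 did not. No other gene's window held its summit, and the nearest other coding start was that of unc-32, 1309 bp away. LIN-52 is a small core subunit. At lin-52 the leading region, III:9824504-9824813, lay over the start of this short gene, with the summit in a coding exon and 89 bp upstream of the inner of its annotated starts. Its signal was 57.8 in the pooled list, 38.0 in replicate 1 and 32.9 in replicate 2. Its −log10 IDR was 2.37 when the replicates were compared with each other and 1.35 in the pooled ranked list, so it is a conservative peak and not a pooled one. A second region, with its summit at -431 bp from the lin-52 start, had a higher signal in the pooled list, 62.9, and a lower pooled −log10 IDR, 0.78. Its signal was 41.7 in replicate 1 and 16.8 in replicate 2. At lin-37, which encodes a further core subunit, the strongest of 3 ranked regions had signal 25.8 and lay in an intron. Replicate 2's own ranked list had no region overlapping it, and its 1 region at lin-37 lay in a coding exon, with signal 17.4.

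In the retinoblastoma arm, efl-1 and lin-35 each had a region near the start that came closer to the limit in 1 replicate than in the other. Neither region passed the limit in either replicate. EFL-1 is the E2F subunit. At efl-1 the region V:16965752-16966061, 232 bp upstream of its start, had signal 63.7 in the pooled list, 27.5 in replicate 1 and 40.9 in replicate 2. Its −log10 IDR was 0.24 in replicate 1 and 1.85 in replicate 2. LIN-35 is the worm's retinoblastoma family protein. At lin-35 the region I:5807895-5808204, 341 bp into the gene in a coding exon, had signal 59.4 in the pooled list, 36.8 in replicate 1 and 19.3 in replicate 2. There the order was reversed, with a −log10 IDR of 1.34 in replicate 1 and 0.22 in replicate 2. Replicate 2 instead ranked a lin-35 intron region 2501 bp from the start highest in the gene, with signal 35.4 and a −log10 IDR of 1.34. For that reason lin-35 counts in both replicates at an IDR of 0.05, although the regions differ. DPL-1, the DP subunit, forms a dimer with EFL-1. At dpl-1 the pooled list ranked 3 regions, of signal 17.2 to 21.9. No region of replicate 2's own ranked list overlapped the leading one, which lay in an intron. The region of highest pooled signal, 327 bp upstream of the start, was overlapped by a replicate 2 region of signal 17.4 and −log10 IDR 0.16. Replicate 1's ranked list held no region there.

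The leading regions that were no pooled peak had low signals for the pooled list, whose own lowest signal was 2.22. Of its 1553 peaks, 254 (16.4%) had a lower signal than the efl-1 region and 165 (10.6%) a lower one than the lin-35 region. For the lin-52 region it was 151 (9.72%), for the lin-37 region 83 (5.34%) and for the dpl-1 region 76 (4.89%). Of the genes without a pooled peak in the window, the closest pooled peak to a start was 36946 bp from lin-52, 63091 bp from lin-35, 67077 bp from dpl-1, 67933 bp from lin-37 and 220641 bp from efl-1.

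**Figure D3:**
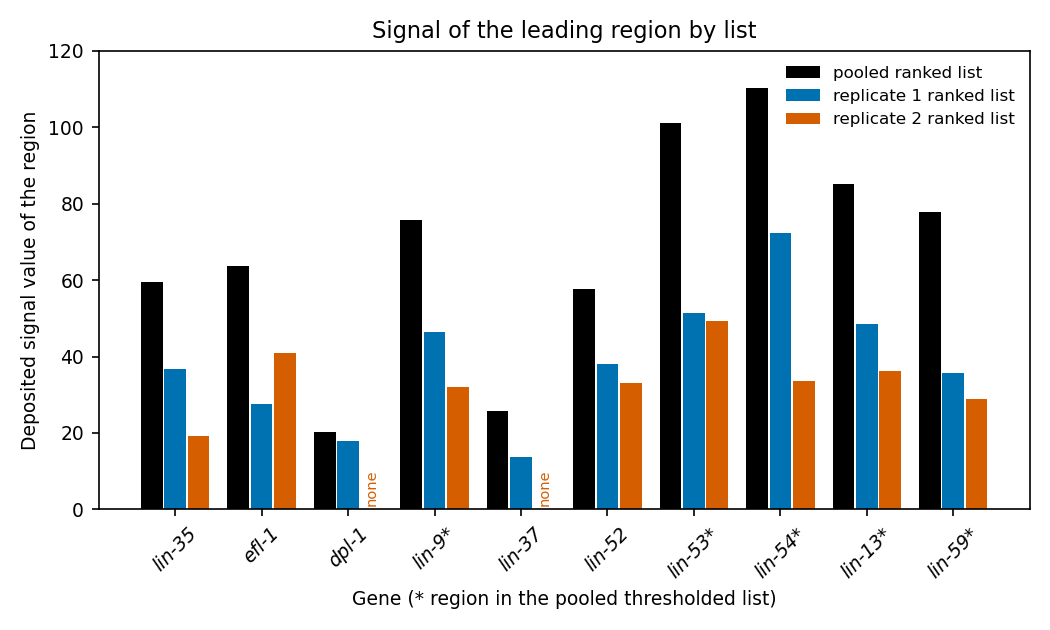
Deposited signal value (vertical axis) of the leading region of each gene (horizontal axis) in the pooled, replicate 1 and replicate 2 ranked lists; scaling between the lists is not stated. Genes with an asterisk have a pooled peak, and within a list lin-54 is highest in the pooled list (110.2) and in replicate 1 (72.3), and lin-53 in replicate 2 (49.3); dpl-1 and lin-37 have no overlapping region in replicate 2's own ranked list.

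The peaks at lin-13 and lin-59 lay farther upstream and were in neither replicate's own list. At lin-13 the peak III:7710140-7710449 was 804 bp upstream of the start, with signal 85.3 (rank 680), 48.4 in replicate 1 and 36.1 in replicate 2. The −log10 IDR was 2.81 in the pooled ranked list, 1.62 in replicate 1 and 0.98 in replicate 2. At lin-59 the peak I:3721540-3721849 was 538 bp upstream, with signal 77.9 (rank 861), 35.7 in replicate 1 and 28.8 in replicate 2. Its −log10 IDR was 2.30, 1.40 and 0.90 in the same order. Neither peak lay in another gene's window. The nearest other coding starts were those of C03B8.3, 2014 bp from the lin-13 peak, and of the germline helicase gene glh-4, 5332 bp from the lin-59 peak. With a narrower promoter window of 500 bp up and 100 bp down both were lost, and 3 members kept a pooled peak. For that window the share of all genes was not computed.

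**Figure D4:**
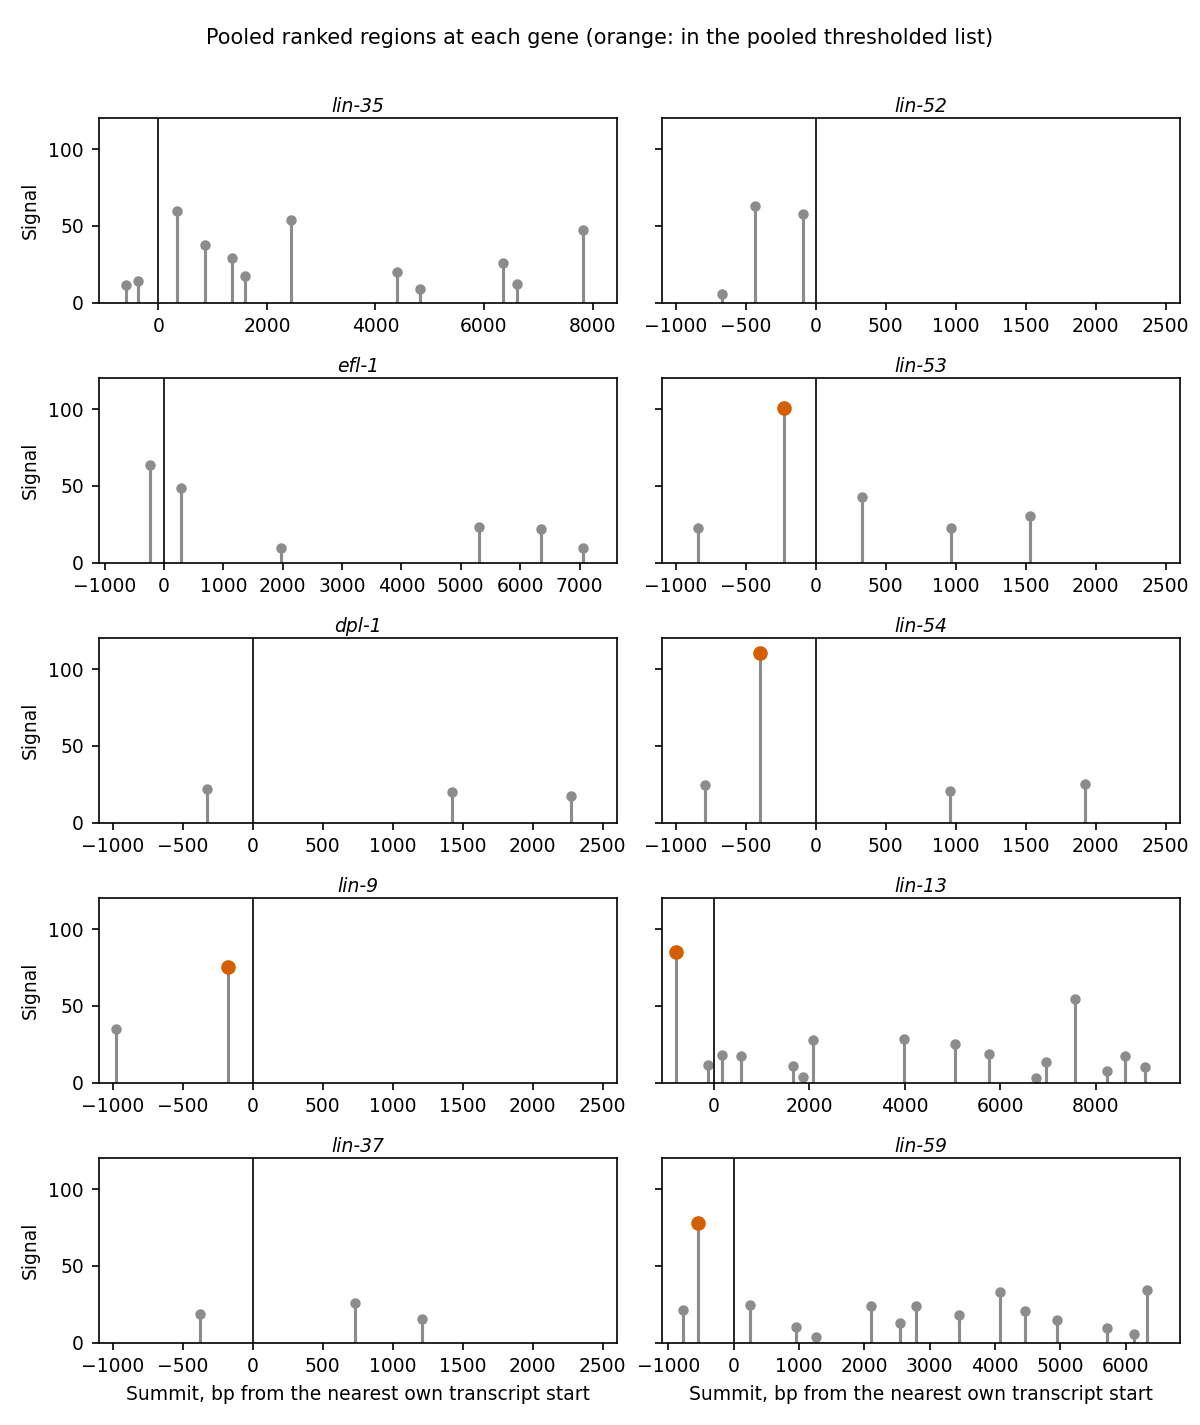
One panel per gene: summit position in bp from the nearest own transcript start (horizontal axis, upstream to the left of the vertical line at 0) against the signal of each pooled ranked region (vertical axis). Orange points are the 5 pooled peaks, all upstream of the start; grey points are ranked regions above the IDR limit, which run along the bodies of lin-13, lin-59 and lin-35.

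All 5 pooled peaks lay upstream of the member's start, at 175 to 804 bp. Over the 805 genes with a pooled promoter peak, the strongest such peak lay at a median of -284 bp from the start, with quartiles of -553 and -135. The members' other ranked regions were mostly inside the genes. Of 69 pooled ranked regions at the members, 19 had the summit in a promoter window and 50 only in the gene body, and 32 of the 69 lay in a coding exon of the member. The long genes held most of them, with 16 at lin-13, 15 at lin-59 and 12 at lin-35. The strongest body region of lin-13, 7566 bp from the start in a coding exon, had signal 54.8 and a −log10 IDR of 0.88. No summit of a leading region lay within 300 bp of the start of a tRNA, snoRNA, snRNA or rRNA gene, whereas 23.6% of the pooled peaks did. Of the 5 pooled member peaks, those at lin-53 (nra-2) and lin-54 (rpl-12) also lay in another coding gene's promoter window. Of the 687 pooled peaks in a promoter window, 176 (25.6%) lay in the windows of more than 1 coding gene. Among the leading regions that were no pooled peak, those of lin-35 and efl-1 lay in the promoter windows of vps-51 and fbxa-90, and that of dpl-1 lay in an intron of T23G7.2.

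The sequence around the summits was read for 3 families of short words, on both strands and within 100 bp of the summit. The first was the TEAD core CATTCC. The next was TTTGAA with its variant TTCGAA, forms of the cell cycle homology region that LIN-54 binds. The last held E2F-type words, namely GGCGCG with its variant GGCGGG, the word CGCGAA, and the longer word GCGGGAA. The windows of 4 core and E2F genes are shown for the words they hold, and that of lin-13 as a pooled peak with none. They are from the RefSeq genome of the ce11 assembly, plus strand, 5′ to 3′, without annotated UTR bases. They cover V:16965807-16966007 for efl-1, III:8904206-8904406 for lin-9, III:9824559-9824743 for lin-52, IV:13240652-13240745 for lin-54 (the side away from rpl-12, without the summit) and III:7710195-7710395 for lin-13. Capitals mark the listed words in either orientation and a 9-base run described after them.
efl-1: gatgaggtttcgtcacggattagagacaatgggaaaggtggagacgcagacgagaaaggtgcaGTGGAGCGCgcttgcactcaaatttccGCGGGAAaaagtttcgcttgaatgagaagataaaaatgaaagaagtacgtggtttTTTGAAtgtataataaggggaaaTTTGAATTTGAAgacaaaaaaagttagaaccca
lin-9: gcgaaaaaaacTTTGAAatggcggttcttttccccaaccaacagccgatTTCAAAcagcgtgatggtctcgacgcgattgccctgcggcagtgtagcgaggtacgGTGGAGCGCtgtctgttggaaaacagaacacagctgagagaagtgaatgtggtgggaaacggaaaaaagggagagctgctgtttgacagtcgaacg
lin-52: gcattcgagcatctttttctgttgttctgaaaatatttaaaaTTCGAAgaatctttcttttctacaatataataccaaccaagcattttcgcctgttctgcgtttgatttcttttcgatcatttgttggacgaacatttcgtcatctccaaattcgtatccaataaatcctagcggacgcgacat
lin-54: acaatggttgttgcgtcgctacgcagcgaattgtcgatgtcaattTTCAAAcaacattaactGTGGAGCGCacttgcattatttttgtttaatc
lin-13: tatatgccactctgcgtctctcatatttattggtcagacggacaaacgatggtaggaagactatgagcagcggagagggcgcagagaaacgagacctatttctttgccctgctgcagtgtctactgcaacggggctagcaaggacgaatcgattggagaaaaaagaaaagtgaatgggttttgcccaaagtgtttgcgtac

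A cell cycle homology word lay at 4 of the 5 members with a pooled peak, lin-9, lin-53, lin-54 and lin-59, and an E2F-type word at 1 of them, lin-53. CATTCC lay at 0 of the 10 leading summits, and in 1 of the 5 pooled peaks when the whole region was read. In that reading the E2F-type words lay in 3 of the 5 and the cell cycle homology words in 5. Within 50 bp of the summit the cell cycle homology words lay at 1 of the 5 and the E2F-type words at 1. Within 100 bp of the summit, the shares among all 1553 pooled peaks were 35.0% for the cell cycle homology words, 27.2% for the E2F-type words and 8.56% for CATTCC. Among the 78252 ranked regions above the IDR limit they were 45.2%, 14.5% and 10.6%. Shares for the whole region and within 50 bp were not computed, so the member counts there cannot be set against these. A longer window holds more words by length alone. The E2F-type words overlap each other in part, and TTTGAA is frequent in AT-rich sequence. At efl-1, below the limit, GCGGGAA lay 10 bp from the summit and TTTGAA occurred 3 times. The window of lin-13 held none of the words. The 201 bp windows at the members' pooled peaks had a GC content of 46.8% to 51.7%, with a median of 47.8%, against a median of 45.3% for all pooled peaks and 39.8% for the weaker regions. A match is a description of the letters and not a bound site.

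The run GTGGAGCGC occurred once in each of the efl-1, lin-9 and lin-54 windows, starting 37, 5 and 69 bp from the summit. It was picked out after the sequences had been read, so its count at these genes carries no test. It lay at 3 of the 10 leading summits. The lin-9 and lin-54 regions among them are pooled peaks, and the efl-1 region is a weaker one. Counted on both strands within 100 bp, the run lay at 16 of the 1553 pooled peaks (1.03%). Among the 78252 weaker regions it lay at 186 (0.238%).

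Genes that act with or against the DRM complex were described from 9 lists, chosen with earlier results of these data known. Of their 61 genes, 8 had a pooled peak in the gene or promoter window (13.1%, against 5.86% of all genes). In replicate 1's own list there were 7 (11.5%, against 3.23% of all genes). In replicate 2's there were 4 (6.56%, against 2.19%). None of the 4 class A synMuv genes (lin-8, lin-15A, lin-38, lin-56) had a peak. Neither did any of 7 other class B genes, which include hpl-2 and the H3K9 methyltransferase gene met-2, of 6 genes of the NuRD and MEC complexes or of 4 SUMO pathway genes. The highest −log10 IDR among these lists was 1.63 at lin-36, in the class B list.

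The strongest of the related peaks was at set-16, in the list of COMPASS and SET genes. The set-16 gene, which encodes an MLL-type H3K4 methyltransferase, had a peak at III:13643693-13643828 with signal 209.7 (rank 50), 145 bp upstream of its start. The gene held a further pooled peak and had a peak in both replicates' own lists. That first summit also lay in the window of drr-2. The set-2 gene, for the SET1-type enzyme, had a peak of 98.7 located 224 bp upstream, in replicate 1's own list and not replicate 2's. The other 6 genes of that list had none. In the Tip60 and synMuv class C list 1 of 6 genes had a peak, epc-1, the Enhancer of Polycomb homologue (signal 102, 225 bp upstream, both replicates). Its summit also lay in the window of Y111B2A.12.

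Among 8 genes of the Polycomb, MES-4 and synMuv suppressor list, mrg-1 and zfp-1 had peaks. The chromodomain gene mrg-1 had a peak of signal 81.0 lying 254 bp upstream, shared with spcs-2. It had a peak in replicate 1's own list and none in replicate 2's. The gene zfp-1, which encodes an AF10 homologue, held 3 pooled peaks, the strongest of signal 105.2 in an intron 1507 bp from a start. Of 7 retinoblastoma partner and G1 genes only cye-1, for cyclin E, had a peak (130.1, intron, with a small RNA gene start within 300 bp). Both zfp-1 and cye-1 had a peak in each replicate's own list. Of 11 genes of the EGF and Ras pathway of the vulva, mpk-1 and sem-5 had peaks. The ERK kinase gene mpk-1 had an intron peak of 91.4, with the summit 4192 bp from its nearest start. That gene had a peak in replicate 1's own list and none in replicate 2's. The gene sem-5, for the GRB2-type adaptor, had a peak of 75.2 lying 611 bp upstream, in neither replicate's own list. The EGF gene lin-3, which synMuv genes silence, had none; its best ranked region had signal 35.2 and a −log10 IDR of 0.41. When each summit was given to its nearest start of any gene, 3 of the 61 genes were left (mpk-1, set-2 and set-16). As no share of all genes was computed under that rule, the fall cannot be read as particular to these genes.

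**Figure D5:**
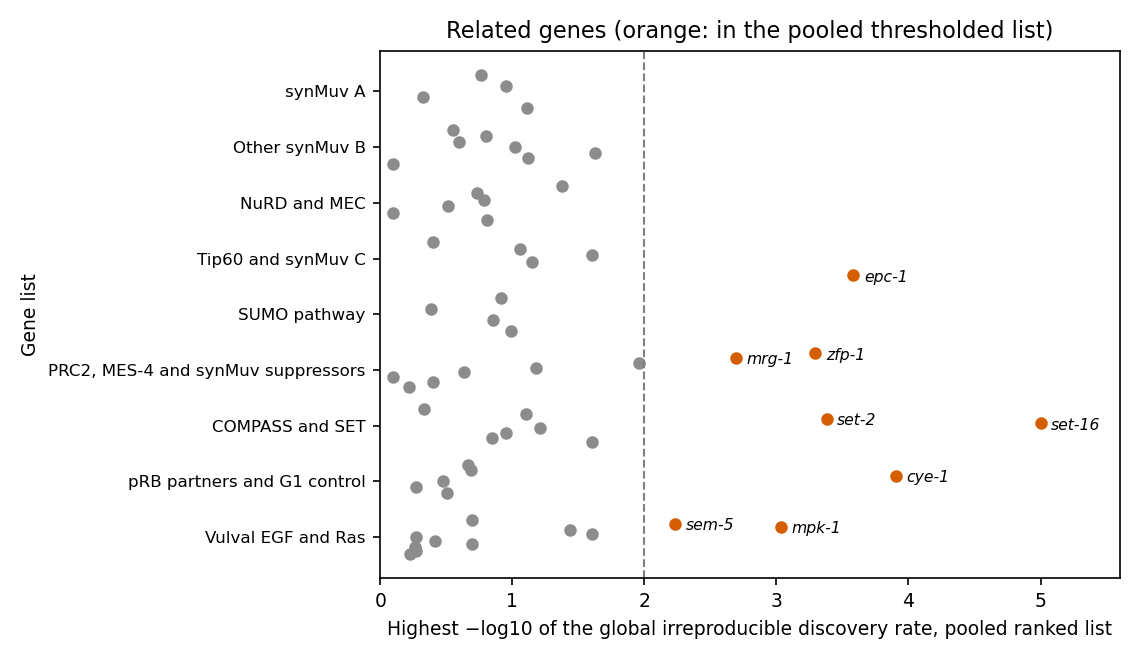
Highest −log10 global IDR in the pooled ranked list (horizontal axis) of each related gene, by list (vertical axis); genes with no ranked region, gfl-1 and cdk-2, are not drawn. Orange points, named, are the 8 genes with a pooled peak, from sem-5 at 2.23 to set-16 at 5, and the dashed line marks the limit of 2.

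The genes whose peak was most like that of lin-54 were found by the distance between log2 signals in 3 lists (pooled, replicate 1 and replicate 2 ranked), among 786 other genes with a pooled promoter peak ranked in both replicates. The nearest was rpl-12, at distance 0 because it shares the peak. The cathepsin B-like protease gene cpr-4 was also near, at 0.06 (signals 106.1, 72.3 and 33.0). The likeness is over 3 lists that share reads, and is a description.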

How the data were processed

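GFP-tagged EGL-44 was profiled by ChIP-seq in 2 biological replicates; per the labels, DNA was broken by sonication. The 8 deposited lists were used: a ranked and a thresholded list for each replicate, for both pooled, and for the replicates compared with each other (conservative). The authors deposited a signal value for each region, whose scaling is not stated, and, in ranked lists, a score read here as the −log10 of the global IDR. Each thresholded list equalled the deposited ranked regions at 2 or more on that scale, minus 15 to 25 regions. Which aligner and peak caller made them is not stated in the labels or headers, and control reads were not analysed here. Depth is unknown, since the files hold no read counts, and intervals that need it are left out. A further 6 input signal columns were not used, and results from the remaining ones are not reported.

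Transcript starts and symbols came from Ensembl release 115 (ce11 coordinates), and chromosome lengths were checked against the RefSeq genome. A summit was given to every gene whose body or promoter window held it. Replicate regions were matched to pooled ones by an overlap of at least 1 bp. No test was run: there is 1 group, and the members and all lists and words were chosen with earlier results of these data known. The named genes are the members, genes that share their peaks, up to 3 genes with a peak per related list, and the 3 genes most like the strongest member, of which 1 is not reported here, with other genes named for absence or position. Assignment of summits was tested on simulated data. Python 3.11.15, NumPy 2.4.6, pandas 2.3.3 and Matplotlib 3.10.9 were used.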

Additional observations from a re-analysis of the deposited data

How the results depend on the processing

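Counts of genes were recomputed with other lists, IDR limits, windows and rules of assignment. The 5 members with a pooled peak became 2 at an IDR of 0.001 or less, 8 at 0.05 or less, 3 with the promoter window of 500 bp up and 100 bp down, and 1 to 3 with the list of 1 replicate. For the promoter window alone the 5 became 2 at 0.001, 3 with the narrower window and 1 to 3 with 1 replicate's list. The 1 member found in both replicates' lists became 0 at 0.001 and 2 at 0.05. The 8 related genes became 15 at 0.05 (24.6%, against 11.4% of all genes), 3 with the nearest start only and 4 to 7 with the list of 1 replicate. The 4 of 5 member peaks with any searched word became 2 of 2 at 0.001 and 1 of 5 within 50 bp of the summit. With replicate 1's list they became 3 of 3, and with replicate 2's list 1 of 1. Within 100 bp of the summit, 58.3% of all pooled peaks and 59.0% of the weaker regions held any searched word. Stricter limits, narrower windows and shorter lists hold fewer regions by construction. The share of all genes was not computed for the nearest start, the narrower window or both replicates' lists at other IDR limits. Under the alternatives tried, 27 of these 44 recomputed counts stayed within 1.5 times the reported one. The planned comparison of the input columns is not reported and its alternative was not run, because none of these columns carries a replicate name and the scaling between libraries is unknown. No paired analysis was possible because there is a single group of 2 replicates. Without read counts, a region missing from a list cannot be told apart from one too shallow to be called.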

Other observations

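The density of ranked regions varied among members with a peak and among those without. The 10 members had a median of 1.27 pooled ranked regions per kb of gene and promoter window (range 0.409 at lin-9 to 1.95 at lin-53), and all 19973 nuclear protein-coding genes had a median of 0.870 (quartiles 0.321 and 1.33). The lowest density was at lin-9, which had a pooled peak, and lin-37, which had none in any thresholded list, stood at 1.13.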
